A study of Mus musculus with 8 samples.

Results

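The 31 genes described here make, sense, esterify, move and export cholesterol, and they were measured in mouse hepatocytes with and without the cannabinoid receptor CB1R. The genes were listed by name and taken from the array through the transcript accession of each spot. All 31 were present, on 42 probes, among 21368 named genes, and 29 of them had a probe bright enough to be tested, among 11072 tested genes. Hepatocytes were isolated from hCNR1+/+ control and hCNR1-/- mice, which the sample labels call hCNR1_WT and hCNR1_cKO, and their RNA was hybridised to 1-colour Agilent arrays, with 4 arrays per genotype and 8 in all. Both groups were male, 12 to 14 weeks old and kept on a standard diet with no treatment. The hCNR1+/+ samples carry the strain label CNRO. The hCNR1-/- samples come from the cross of mice with a floxed Cnr1 gene, CNR1 flox/flox, to mice with Cre recombinase driven by the albumin promoter, Alb-Cre, so that the deletion is aimed at hepatocytes. Controls were littermates, but the labels do not say whether they carried the floxed alleles. The labels number the samples without naming animals, so p-values here measure the spread between 4 samples of a kind.

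Cholesterol is built from acetyl-CoA. The mevalonate enzymes give farnesyl pyrophosphate, squalene synthase and the enzymes after it close the first sterol ring system, lanosterol, and a last set of enzymes trims lanosterol to cholesterol. The pathway is held in check by its product: when sterol in the endoplasmic reticulum falls, SCAP carries the transcription factor SREBP2 to the Golgi, where it is cut loose to switch on the genes of synthesis and uptake, and when sterol is plentiful the INSIG proteins keep SCAP in place. Hepatocytes are the main site of this regulation in the body, since they also store cholesterol as esters, pack it into lipoproteins and excrete it into bile.

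Promoters of this pathway are bound by SREBP2 together with NF-Y, which reads the CCAAT box, so the RefSeq windows from 250 bases before to 50 bases after the start site (build GRCm38.p6) were searched on both strands for the letters TCACNCCAC, a form of the sterol regulatory element, for CCAAT and for the E-box CACGTG. A window was at hand for 25 of the 31 members, matched by gene symbol. Windows for Fdps, Fdft1, Sqle, Stard4, Soat2 and Npc1 were not analysed here. The windows of 4 members are shown in the reading direction of the gene with each match in capitals (ATTGG is CCAAT on the other strand): Hmgcs1, which holds the sterol regulatory element, Idi1 and Insig2, which passed the fold rule given below, and Insig1, the paralogue of Insig2. They lie at chr13:119690101-119690400 (plus strand) for Hmgcs1, chr13:8885356-8885655 (plus strand) for Idi1, chr5:28071162-28071461 (plus strand) for Insig1 and chr1:121332540-121332839 (minus strand, 1 of 3 starts of the gene in the table) for Insig2.
Hmgcs1: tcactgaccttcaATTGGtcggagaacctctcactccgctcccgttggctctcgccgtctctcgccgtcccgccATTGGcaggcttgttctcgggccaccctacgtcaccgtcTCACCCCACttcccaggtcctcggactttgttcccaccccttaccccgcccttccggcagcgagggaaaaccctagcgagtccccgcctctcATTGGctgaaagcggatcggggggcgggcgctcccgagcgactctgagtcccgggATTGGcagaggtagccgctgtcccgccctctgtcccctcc
Idi1: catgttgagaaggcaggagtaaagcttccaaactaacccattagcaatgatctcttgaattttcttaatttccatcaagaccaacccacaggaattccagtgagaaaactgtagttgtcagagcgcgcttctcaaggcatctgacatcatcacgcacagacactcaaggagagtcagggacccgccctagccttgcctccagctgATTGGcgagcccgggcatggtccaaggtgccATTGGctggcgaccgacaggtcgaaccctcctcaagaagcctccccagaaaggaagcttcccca
Insig1: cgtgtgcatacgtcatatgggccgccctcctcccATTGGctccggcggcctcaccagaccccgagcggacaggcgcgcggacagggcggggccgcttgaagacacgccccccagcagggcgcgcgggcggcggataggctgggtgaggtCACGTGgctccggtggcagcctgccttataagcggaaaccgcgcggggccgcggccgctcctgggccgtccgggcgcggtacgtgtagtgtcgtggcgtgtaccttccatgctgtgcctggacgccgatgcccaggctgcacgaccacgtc
Insig2: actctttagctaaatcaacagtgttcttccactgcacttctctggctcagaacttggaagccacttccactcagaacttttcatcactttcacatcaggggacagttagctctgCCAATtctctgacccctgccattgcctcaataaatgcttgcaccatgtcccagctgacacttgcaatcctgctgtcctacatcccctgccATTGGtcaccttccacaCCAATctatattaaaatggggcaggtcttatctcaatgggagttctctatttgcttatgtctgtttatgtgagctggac
In Hmgcs1 the sterol regulatory element began 137 bases before the start site and stood among 4 CCAAT boxes. It was the single member of the 25 with these letters in its window, against 1.44% of all genes in the table. Idi1 had 2 CCAAT boxes, 45 and 14 bases before the start. Insig1 had 1 CCAAT box and 1 E-box, 101 bases before the start. Insig2 had 3 CCAAT boxes, at 136, 46 and 29 bases, in the window shown, and the windows of its other starts held none of the 3 motifs. Over the member genes, a CCAAT box was found in 22 of 25 (88%), against 41.1% of all genes, and an E-box in 6 of 25 (24%), against 8.09%. These are counts of letters, not of bound sites. None of the 3 motifs contains another.

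Levels below are the log2 signal of a probe minus that of its array's 75th percentile (non-control spots), so that a difference of 1 is a doubling, and levels of different genes are not set against each other because each probe has its own response. A member was said to rise or fall if it passed the thresholds the study names, a fold change above 2 with p below 0.05. Here p was the unadjusted p from limma, while the study does not name its test. By its own test the study counted many more genes lower than higher, unlike the shares given below. The Benjamini-Hochberg adjusted p over all 11072 genes is given beside the fold rule. By this rule Stard4 and Idi1 rose and Insig2 fell in hCNR1-/- hepatocytes, and 26 of the 29 tested members did neither. Among all tested genes 3.75% fell and 4.78% rose by the same rule, so that 1 member lower and 2 higher of 29 is close to what the whole array gave. By adjusted p below 0.05, Stard4 was higher and no member was lower, where 2.94% of all tested genes were higher and 1.3% were lower. An unadjusted p below 0.05 without the fold was met by 6 members, 5 of them higher, and by 21.6% of all tested genes. The median log2 fold change of the members was -0.01, against 0.08 over all tested genes. The fold change was below 0 in 15 members and above 0 in 14, a split that moved to 23 below and 6 above when the arrays were left unscaled, where the median of all tested genes itself was -0.47.

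**Figure D1:**
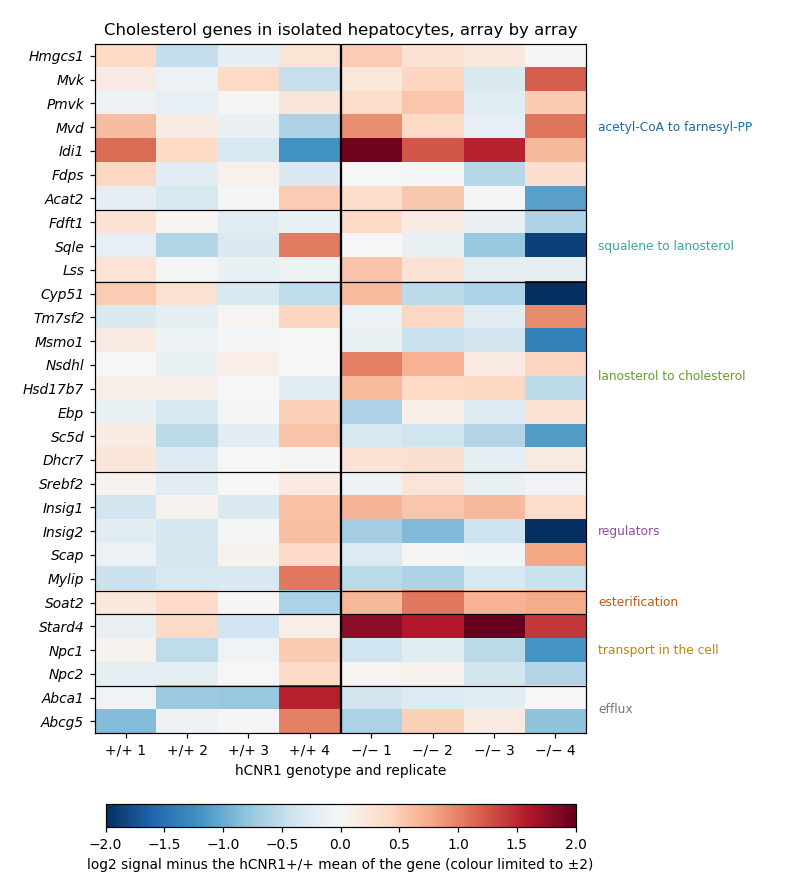
Log2 signal of the 29 tested members on each of the 8 arrays, minus the hCNR1+/+ mean of the same gene, with colour limited to 2 in either direction and genes ordered by their place in the pathway. Stard4 and Idi1 stand out as higher across the hCNR1-/- arrays, while the deepest blue cells of Sqle, Cyp51, Msmo1 and Insig2 are all on hCNR1-/- array 4.

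Arrays differed in brightness. The 75th percentile intensity was 62.0 to 139 on the hCNR1+/+ arrays and 29.3 to 124 on the hCNR1-/- arrays, with 35.0% to 42.3% and 28.6% to 39.3% of spots well above background. The dimmest was hCNR1-/- array 4, whose mean correlation with its own group was 0.942 against 0.9723 to 0.9753 for the other three, and it held the lowest or highest value of its group in 23 of the 29 members (79.3%), against 81.0% over all genes. In hCNR1+/+, array 4 did so in 22 of 29 (75.9%), against 75.3%. Values without array 4 are given below for a number of members. A single slide carried all 8 arrays. Its row 1 held the hCNR1+/+ and its row 2 the hCNR1-/- arrays, and an effect of the row cannot be told apart from genotype. On 0 of the 8 arrays was the single Cnr1 probe well above background, and the genotype rests on the labels. All 21 hepatocyte markers listed were detected on all 8 arrays (detected here means well above background by the scanner software's own call). Of 17 Kupffer cell markers, 12 were bright enough to test. Their summed signal, relative to the 75th percentile, was 87.6 to 173 in hCNR1+/+ and 52.4 to 71.6 in hCNR1-/- samples, while Cd163, Fcgr1 and Timd4 were detected on 0 arrays. Fewer cells of a type and less RNA per cell cannot be told apart in such samples.

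Of the 7 genes from acetyl-CoA to farnesyl pyrophosphate, Idi1 passed the fold rule and 6 did not. Isopentenyl-diphosphate delta-isomerase 1, the product of Idi1, interconverts the 5-carbon isoprene units from which all later steps are built. Its log2 levels were 1.43, 0.72, 0.01 and -0.89 in hCNR1+/+ and 2.25, 1.55, 1.86 and 0.96 in hCNR1-/- samples. Every hCNR1-/- sample lay above 3 of the 4 controls, and hCNR1+/+ sample 1 lay inside the hCNR1-/- range, so the groups overlapped. Idi1 rose 2.53-fold (log2 1.34, SE 0.48), with an adjusted p of 0.146 in limma and an exact two-sided permutation p of 0.0571. Without hCNR1+/+ array 4, the lowest control, the log2 fold change of Idi1 was 0.94 and no longer passed the fold rule, nor did it without hCNR1-/- array 1, the highest, at 1.14. It also missed the rule with background correction by normexp (0.84) and without scaling (0.78).

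Hmgcs1, whose enzyme condenses acetyl-CoA and acetoacetyl-CoA and whose window is shown above, is usually among the clearest SREBP2 targets. Its log2 levels were 4.17, 3.30, 3.58 and 4.05 in hCNR1+/+ and 4.29, 4.06, 3.99 and 3.80 in hCNR1-/- samples. The 2 ranges overlapped, and the log2 fold change was 0.26 (SE 0.25, 95% interval -0.29 to 0.81, adjusted p = 0.573 in limma). The interval leaves room for neither a doubling nor a halving. Mevalonate kinase (Mvk, 0.39), phosphomevalonate kinase (Pmvk, 0.30) and mevalonate diphosphate decarboxylase (Mvd, 0.56) had log2 fold changes above 0 with adjusted p between 0.386 and 0.528 in limma. For Mvk and Pmvk the sign turned without scaling, to -0.16 and -0.26, and Mvk came to 0.12 without hCNR1-/- array 4. Leaving out the scaling lowers the log2 fold change of every gene by the same amount, so that turn is not particular to these genes. Farnesyl diphosphate synthase (Fdps, -0.06) and Acat2 (-0.05), which makes acetoacetyl-CoA in the cytosol, lay near 0.

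From farnesyl pyrophosphate to lanosterol, none of the 3 members passed the rule. Squalene epoxidase (Sqle), a rate-limiting oxygenase of the pathway, had log2 levels of 5.17, 4.76, 5.05 and 6.38 in hCNR1+/+ and 5.36, 5.19, 4.58 and 3.47 in hCNR1-/- samples. The highest control and the lowest knockout value came from array 4 of each group, and the other values of the 2 groups overlapped. Sqle had a log2 fold change of -0.69 (SE 0.47, 95% interval -1.75 to 0.37, adjusted p = 0.433 in limma) which came to -0.30 without hCNR1-/- array 4 and -0.34 without hCNR1+/+ array 4. Squalene synthase (Fdft1, -0.05) and lanosterol synthase (Lss, 0.11) lay near 0, with adjusted p of 0.935 and 0.809 in limma.

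Of the 8 enzymes that turn lanosterol into cholesterol, none passed the fold rule on the probe used, but the groups did not overlap for 2 of them, 1 in each direction. Nsdhl, a dehydrogenase that removes a methyl group from the sterol ring together with Msmo1 and Hsd17b7, had log2 levels of 0.82, 0.69, 0.95 and 0.84 in hCNR1+/+ and 1.83, 1.52, 0.99 and 1.26 in hCNR1-/- samples. All hCNR1-/- values lay above all controls, the closest by little. This gave a log2 fold change of 0.57 (SE 0.23), with an adjusted p of 0.179 in limma. Msmo1, the methylsterol oxidase of the same step, had log2 levels of 5.68, 5.41, 5.47 and 5.50 in hCNR1+/+ and 5.36, 5.06, 5.14 and 4.16 in hCNR1-/- samples. Here every hCNR1-/- value lay below every control. For Msmo1 the log2 fold change was -0.58 (SE 0.27, adjusted p = 0.252 in limma), and -0.33 without hCNR1-/- array 4. Hsd17b7, the third enzyme of the step, had a log2 fold change of 0.23 (adjusted p = 0.655 in limma), and 0.48 without hCNR1-/- array 4.

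Groups that did not overlap were found in 5 members in all, 2 lower (Insig2, Msmo1) and 3 higher (Stard4, Soat2, Nsdhl) in hCNR1-/-. Among all tested genes, 5.04% did not overlap on the lower and 12.7% on the higher side. Each such gene has an exact two-sided permutation p of 0.0286, the smallest that 4 samples against 4 can give.

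The other lanosterol enzymes had overlapping groups. Cyp51, the lanosterol demethylase, had a log2 fold change of -0.75 (SE 0.57, adjusted p = 0.478 in limma), with levels of -1.06 to -0.05 in hCNR1+/+ and -3.03 to 0.07 in hCNR1-/- samples. Its lowest value was again hCNR1-/- array 4, where the probe was not well above background, and the log2 fold change was -0.18 without that array. Without hCNR1-/- array 1, the highest, Cyp51 passed the fold rule as lower, at -1.21. Sterol C5-desaturase (Sc5d) had -0.60 (adjusted p = 0.263 in limma). The sterol isomerase Ebp had a log2 fold change of -0.11 and the sterol reductase Tm7sf2 of 0.26, which came to 0.026 without hCNR1-/- array 4. Dhcr7, the reductase of the final double bond, had log2 levels of 3.33, 2.83, 3.07 and 3.12 in hCNR1+/+ and 3.38, 3.41, 2.89 and 3.26 in hCNR1-/- samples. The Dhcr7 groups overlapped almost fully, and the log2 fold change was 0.15 (SE 0.21, 95% interval -0.32 to 0.62, adjusted p = 0.711 in limma).

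Taken over the 18 enzymes from Acat2 and Hmgcs1 to Dhcr7, the mean log2 level was 3.97, 3.63, 3.70 and 3.77 on the hCNR1+/+ arrays and 4.14, 4.01, 3.64 and 3.57 on the hCNR1-/- arrays. The highest and the lowest of these 8 means were both hCNR1-/- samples. However, only 17 of the 18 enzymes were detected on all 8 arrays. The lowest mean, on hCNR1-/- array 4, includes the Cyp51 level of -3.03, where that probe was not well above background. Means without Cyp51 were not taken, so which sample was lowest may rest on that 1 value.

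**Figure D2:**
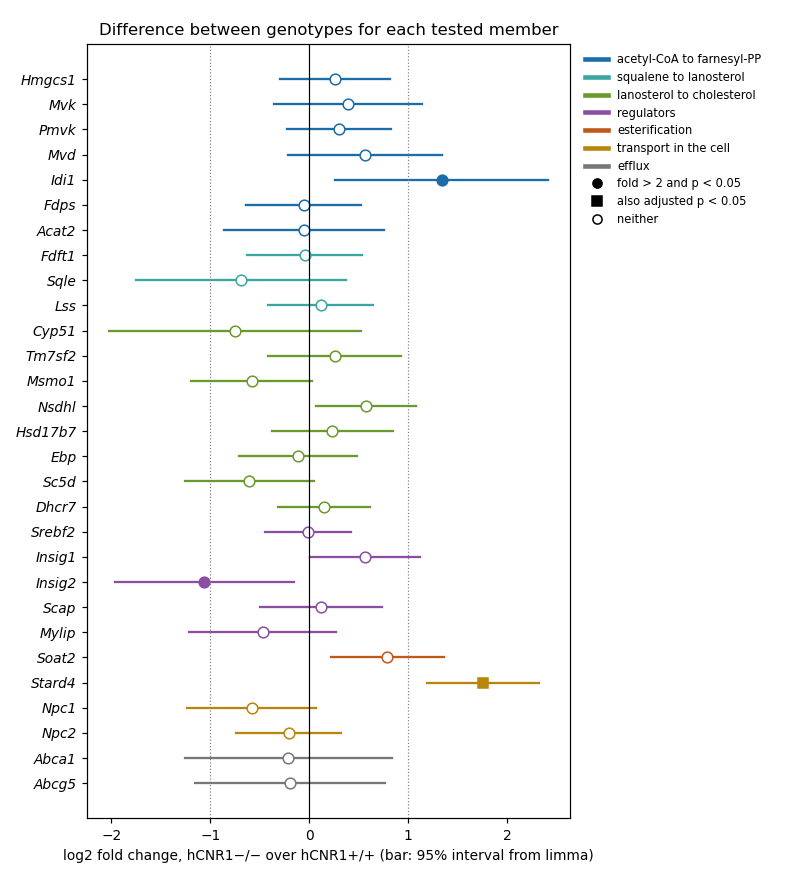
Log2 fold change, hCNR1-/- over hCNR1+/+, of each tested member with its 95% interval from limma; dotted lines mark a doubling and a halving. Filled symbols mark Stard4, Idi1 and Insig2, which passed the fold rule, and the square marks Stard4, the member past adjusted p below 0.05.

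The regulators of the pathway did not move together. INSIG1 and INSIG2 both hold SCAP in the endoplasmic reticulum when sterol is plentiful. Insig1 is itself switched on by SREBP, while Insig2 in liver is known for its control by insulin and feeding. Insig2 had log2 levels of 5.72, 5.59, 5.92 and 6.55 in hCNR1+/+ and 5.26, 5.06, 5.53 and 3.69 in hCNR1-/- samples. Every hCNR1-/- value lay below every control, 3 of them within 1 log2 unit of the lowest control and array 4 much lower. Insig2 fell 2.09-fold (log2 -1.06, SE 0.40), with an adjusted p of 0.167 in limma. Without hCNR1-/- array 4 its log2 fold change was -0.66 and without hCNR1+/+ array 4 it was -0.86, and in neither case did Insig2 pass the fold rule.

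Insig1 had log2 levels of 0.58, 1.02, 0.67 and 1.54 in hCNR1+/+ and 1.63, 1.51, 1.61 and 1.32 in hCNR1-/- samples. The hCNR1-/- values were close to each other and above 3 of the 4 controls, and hCNR1+/+ array 4 lay among them. The log2 fold change of Insig1 was 0.56 (SE 0.25, adjusted p = 0.225 in limma, exact permutation p = 0.0857), and it came to 0.01 without scaling. The paralogues thus had fold changes of opposite sign, of which only that of Insig2 met the fold rule, and the difference between them was not tested.

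Scap, the escort protein of SREBP2, had log2 levels of 7.03, 6.82, 7.21 and 7.54 in hCNR1+/+ and 6.87, 7.17, 7.10 and 7.93 in hCNR1-/- samples. The groups overlapped and the log2 fold change was 0.12 (SE 0.28, 95% interval -0.50 to 0.74, adjusted p = 0.836 in limma). Its sign turned under quantile normalization, at -0.15, and without scaling, at -0.44. Srebf2, which encodes SREBP2, had log2 levels of 2.11, 1.81, 2.02 and 2.19 in hCNR1+/+ and 1.93, 2.29, 1.89 and 1.97 in hCNR1-/- samples on the probe used. On this probe Srebf2 had a log2 fold change of -0.01 (SE 0.20, 95% interval -0.45 to 0.43, adjusted p = 0.980 in limma). Its dimmer probe, described below, gave -1.26, with groups that did not overlap. Mylip, a ubiquitin ligase that marks lipoprotein receptors for degradation, was detected in 3 of the 4 hCNR1+/+ and 2 of the 4 hCNR1-/- samples and had a log2 fold change of -0.47 (adjusted p = 0.441 in limma), which came to -0.12 without hCNR1+/+ array 4, the highest.

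**Figure D3:**
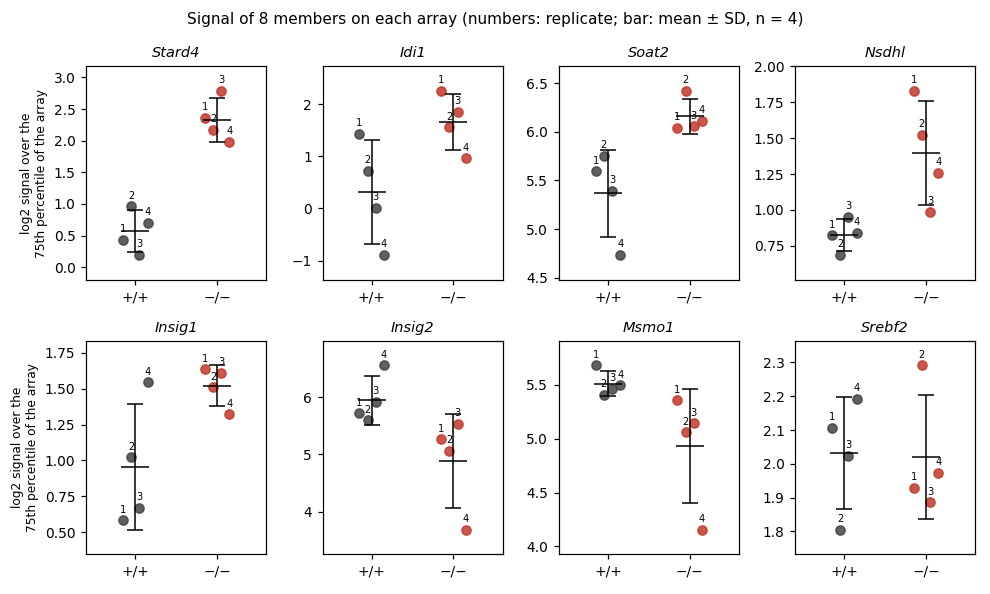
Log2 signal relative to the array's 75th percentile for 8 members, 1 panel each, with every array as a numbered point and the mean and SD of 4 arrays as bars; the vertical axes differ between panels. Stard4, Soat2 and Nsdhl separate upward and Insig2 and Msmo1 downward in hCNR1-/-, while Idi1, Insig1 and Srebf2 overlap. Only the brighter probe of each gene is shown, and the dimmer Srebf2 probe separates downward. Point 4 sets the spread of Insig2 and Msmo1 in hCNR1-/-.

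Stard4, which encodes a soluble protein that carries cholesterol between membranes inside the cell, was the member with the largest difference. Its log2 levels were 0.43, 0.96, 0.19 and 0.70 in hCNR1+/+ and 2.36, 2.17, 2.79 and 1.98 in hCNR1-/- samples. The lowest hCNR1-/- value lay about 1 log2 unit above the highest control. Stard4 rose 3.38-fold (log2 1.76, SE 0.25, 95% interval 1.19 to 2.33), with an adjusted p of 0.0124 in limma. With any 1 array left out, the log2 fold change of Stard4 was between 1.602 and 1.886 and passed the fold rule, and the adjusted p was 0.0568 without hCNR1+/+ array 3 and at most 0.0467 without another. Without scaling it was 1.20 and missed the fold rule. The adjusted p of Stard4 in limma was also above 0.05 under median scaling (0.174), normexp (0.0894), no filter on dim probes (0.0783) and the replicate block (0.0747), and over all alternatives other than leaving out an array it ranged from 0.000777 to 0.817. The lysosomal proteins NPC1 and NPC2 pass on cholesterol that enters with lipoproteins, and their genes did not pass: the log2 fold change was -0.58 for Npc1 (adjusted p = 0.278 in limma) and -0.21 for Npc2 (adjusted p = 0.646).

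Soat2 encodes the enzyme that esterifies cholesterol in hepatocytes for storage and lipoprotein secretion. Its log2 levels were 5.59, 5.75, 5.39 and 4.73 in hCNR1+/+ and 6.04, 6.42, 6.06 and 6.11 in hCNR1-/- samples. All hCNR1-/- values lay above all controls, with less spread than the controls. The fold change was 1.73 (log2 0.79, SE 0.25), under the 2-fold limit, with an adjusted p of 0.112 in limma and 0.58 on the log2 scale without hCNR1+/+ array 4, the lowest. Soat1, the form known from macrophages and most other tissues, was detected on 0 of the 8 arrays and was not tested.

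Of the exporters, Abca1 loads cholesterol on apolipoprotein A-I, and Abcg5 and Abcg8 form together the sterol pump into bile. Abca1 had log2 levels of 0.85, 0.19, 0.17 and 2.49 in hCNR1+/+ and 0.56, 0.65, 0.71 and 0.92 in hCNR1-/- samples. One control, array 4, lay far above the rest, and the other 3 spanned a range that held most hCNR1-/- values. The log2 fold change of Abca1 was -0.21 (SE 0.47, 95% interval -1.26 to 0.84, adjusted p = 0.823 in limma) and turned to 0.31 without hCNR1+/+ array 4. Abcg5 had -0.19 (adjusted p = 0.822 in limma). Abcg8 was detected on 1 of the 4 arrays in each group and was not tested.

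Macrophages also carry several of these genes, Abca1 and Npc1 among them. In the same samples the mean log2 level of the 12 tested Kupffer markers was 1.61 ± 0.52 (SD, n = 4) in hCNR1+/+ and 0.41 ± 0.32 in hCNR1-/-. All 12 had a log2 fold change below 0, and 7 of them were lower by the fold rule. Detection on all 8 arrays held for only 7 of the 12. The macrophage receptor Marco was lower in hCNR1-/- by a log2 fold change of -2.41 (adjusted p = 0.0336 in limma). So was the protease Ctss, at -1.89 (adjusted p = 0.0124 in limma), although no Ctss probe was detected on more than 6 of the 8 arrays. The study describes the hepatocytes as free of inflammatory cells. Other inflammatory cell markers did not all go the way of the Kupffer markers. Among 12 lymphocyte markers 3 were tested, and all 3 had a log2 fold change above 0, with 0 past the fold rule. Among 10 neutrophil markers 2 were tested, 1 below 0 and 1 above. The mean of the 21 hepatocyte markers was 8.38 ± 0.37 in hCNR1+/+ and 8.27 ± 0.19 in hCNR1-/-. By the fold rule, however, 3 of these 21 were lower and 0 higher, the lowest log2 fold change being -1.81. Among all tested genes 3.75% were lower and 4.78% higher by this rule. The part of these in the values of the cholesterol genes was not tested.

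Probes of 1 gene did not always move by the same amount. A second probe passed the brightness filter for 8 members, and all 8 pairs had the same sign, but 2 pairs, for Srebf2 and Stard4, were more than 1 log2 unit apart. In the text above the brighter probe on average was used. For Srebf2, the dimmer probe, annotated to the same transcript, had log2 levels of 1.27, 1.26, 1.38 and 2.36 in hCNR1+/+ and 0.10, -0.04, 0.65 and 0.53 in hCNR1-/- samples. On this probe every hCNR1-/- value lay below every control. The log2 fold change on the dimmer Srebf2 probe was -1.26 (SE 0.30), where the brighter one gave -0.01. Over all 13998 named probes that passed the filter, the adjusted p of the dimmer probe in limma was 0.0479. Averaged over both probes, Srebf2 had a log2 fold change of -0.63 and an adjusted p of 0.127 in limma. For Stard4, the dimmer probe had -0.75, -0.67, -1.002 and -0.05 in hCNR1+/+ and 0.44, 0.06, -0.08 and -1.05 in hCNR1-/- samples. Its hCNR1-/- array 4 was the lowest of all and the groups overlapped. The log2 fold change on the dimmer Stard4 probe was 0.46 (SE 0.34, adjusted p = 0.467 in limma), so the rise of Stard4 was carried by 1 of its 2 probes. With the 2 probes averaged, the log2 fold change was 1.11 and the adjusted p 0.0525. For Insig2, the second probe, annotated to another transcript, gave -0.66 (SE 0.44, adjusted p = 0.416 in limma). For Nsdhl, the dimmer probe gave a larger difference, 1.11 (SE 0.31, unadjusted p = 0.00554 and adjusted p = 0.0739 in limma), which passed the fold rule, although this probe was detected in only 2 control and 3 knockout samples. Mvk, Pmvk and Tm7sf2 differed by less than 0.5 between their probes, and Hsd17b7 had 0.23 on the brighter and 0.79 on the dimmer one.

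**Figure D4:**
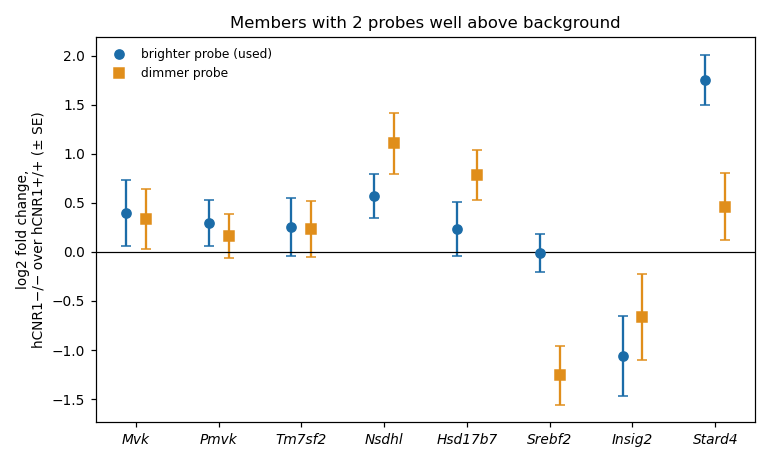
Log2 fold change, hCNR1-/- over hCNR1+/+, with its standard error, on the brighter probe (circle, the one used) and the dimmer probe (square) of the 8 members with 2 tested probes. The pairs of Mvk, Pmvk and Tm7sf2 lie close together, while those of Srebf2 and Stard4 are more than 1 log2 unit apart.

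Beyond the members, 45 other genes of sterol and isoprenoid metabolism were examined, of which 42 were tested. By the fold rule 0 were lower and 1 was higher, against 3.75% and 4.78% of all tested genes. That gene was Osbpl9, an oxysterol-binding protein relative that moves lipid between membranes, with log2 levels of -0.18, -0.28, -0.57 and -0.54 in hCNR1+/+ and 0.77, 0.31, 0.97 and 1.69 in hCNR1-/- samples. The groups did not overlap. Osbpl9 thus had a log2 fold change of 1.33 (SE 0.29, adjusted p = 0.0402 in limma). It was the single one of the 13 tested genes of sterol transport and storage to pass, and none passed among the 11 tested genes of the isoprenoid branches, the 9 of SREBP processing and sterol sensing or the 9 of sterol oxidation and side steps. By unadjusted p below 0.05 alone, 4 of the 42 were higher and 1 was lower, against 21.6% of all tested genes in either direction. Their median log2 fold change was 0.10, against 0.08 over all tested genes.

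The 3 members that passed the fold rule depended on the processing to different degrees. With the brighter probe or the mean of both, Stard4 stayed above it in all settings tried except without scaling. Idi1 lost it under median scaling, without scaling, with the deposited z-scores and with normexp. Insig2 lost it under median scaling, with the probes averaged, with array weights and with the replicate block. With limma's array weights, which count less regular arrays for less, 4 members were higher at adjusted p below 0.05: Idi1, Insig1, Soat2 and Stard4. The share of all tested genes past this limit with array weights was not counted, so 4 of 29 cannot be set against it. The median log2 fold change of all tested genes was 0.18 in that fit, against 0.08 as reported.

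**Figure D5:**
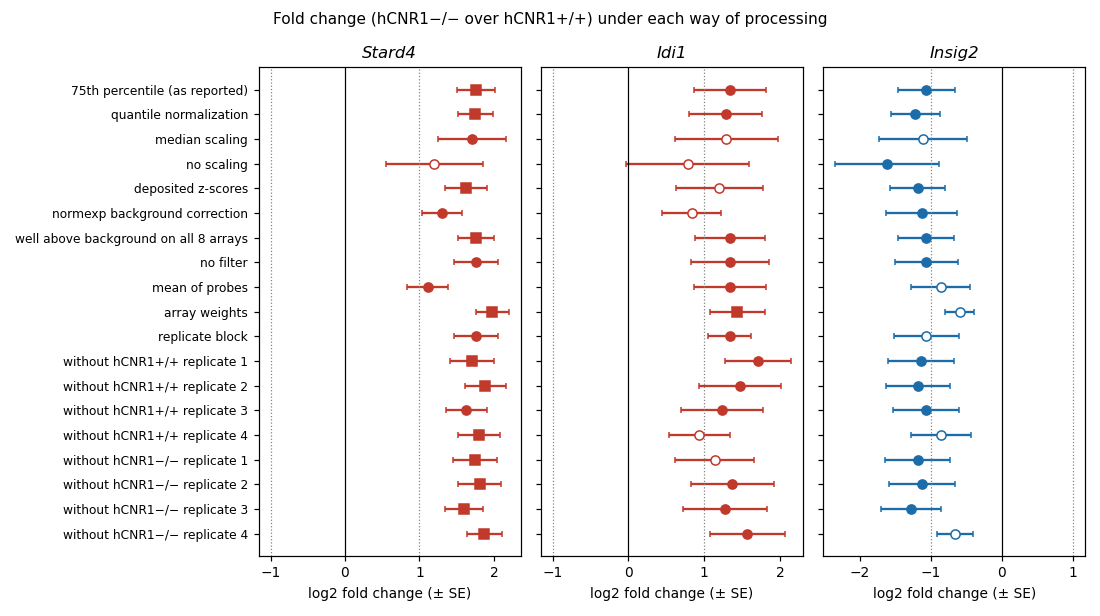
Log2 fold change, hCNR1-/- over hCNR1+/+, with its standard error, of Stard4, Idi1 and Insig2 under each way of processing; filled circles pass the fold rule, squares also have adjusted p below 0.05 and open circles do not pass. All 3 genes kept their direction in every setting, Stard4 passed in all but the unscaled one, and Idi1 and Insig2 were open in several.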

How the data were processed

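Hepatocyte RNA from 4 hCNR1+/+ and 4 hCNR1-/- samples was labelled with Cy3 and hybridised to Agilent arrays. The authors deposited Feature Extraction output (version 12.0.3.1 per the labels) with background-corrected processed intensity per spot, and a table of scores, which are z-scores of log intensity within each array (recomputed within 0.005). From the deposited intensity values, log2 processed signal minus each array's 75th percentile was computed, control spots were left out, spots of a probe averaged, and probes kept if the scanner software called them well above background on 4 or more of the 8 arrays. Genes were named by accession and the probe brightest over all arrays was used. Genotypes were compared with limma 3.58.1 in R 4.3.3 (lmFit, eBayes, Benjamini-Hochberg), without a block, since correlations of same-numbered samples' deviations were 0.21, -0.16, -0.05 and 0.02. The code was tested on simulated data. Permutation tests ran over all 70 assignments of samples. The number of arrays limits the precision. The study names R Studio for its analysis. How hepatocytes were purified and how its array values were tested are not given in the sources used here. Promoter sequences are RefSeq's, GRCm38.p6.

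The members, the other pathway and marker lists and the tests were chosen with earlier results of these data known. Full values were given for members past either threshold, for those without overlap, and for Srebf2, Scap, Insig1, Insig2, Hmgcs1, Sqle, Dhcr7 and Abca1. The dimmer probes of Srebf2, Stard4 and Nsdhl, and the remaining members, were described after their values were seen. Alternatives were other scalings, normexp, other filters, averaged probes, limma's array weights, the replicate number as a block, leaving out single arrays and, chosen after seeing the data, each probe on its own and the recounts of other pathway genes and of groups without overlap.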

Additional observations from a re-analysis of the deposited data

Results flagged for a closer look

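In Mylip, hCNR1+/+ sample 4 stood apart from the other controls: its log2 level was -0.81 against -2.30 to -2.16, a gap of 0.908 of the range of the group (Dixon's ratio). It was 1 of 58 groups of 4 examined, 2 for each tested member, where the limit applied is passed by chance in about 1 in 20 groups.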

How the results depend on the processing

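Limits come first from the number of arrays, 4 per genotype, and from signal over background, which left Soat1 and Abcg8 untested and Cyp51 and Mylip near background on some arrays. Members that fell by the fold rule (1 as reported, Insig2) came to 0 under median scaling, averaged probes, array weights and the replicate block, to 2 with each probe on its own (an alternative chosen after seeing the data, with the dimmer Srebf2 probe), and to 0 to 2 with each array left out (0 without array 4 of either genotype, 2, with Cyp51, without hCNR1-/- array 1). Members that rose (2 as reported) came to 1 under median scaling, the deposited z-scores and normexp, 0 without scaling, 3 with each probe on its own (with the dimmer Nsdhl probe), and 1 to 2 with each array left out (1 without hCNR1+/+ array 4 or hCNR1-/- array 1). Members higher at adjusted p below 0.05 (1 as reported) came to 0 under median scaling, no scaling, normexp, no filter, averaged probes and the replicate block, 4 with array weights, and 0 to 1 with each array left out (0 without hCNR1+/+ array 3). Members lower without overlap (2 as reported) came to 4 under quantile normalization, 0 under median scaling and normexp, and 2 to 4 with each array left out (4 without hCNR1+/+ array 2), and those higher (3 as reported) to 1 under quantile normalization, median scaling and z-scores, 0 without scaling, and 3 to 5 with each array left out (5 without hCNR1-/- array 4). Other pathway genes that fell (0 as reported) came to 1 under quantile normalization, no scaling, z-scores and averaged probes and 0 to 1 with each array left out (1 without hCNR1+/+ array 3 or hCNR1-/- array 1, 2 or 3), and those that rose (1 as reported) to 0 without scaling and with normexp, 3 with array weights, and 1 to 3 with each array left out (3 without hCNR1-/- array 4). For all these counts, the share of all tested genes was taken only in the fit as reported. Under the other settings a count has no such share beside it and is no result about the members. With 1 array left out, 3 samples stand against 4, and such groups separate fully by chance more often than 4 against 4. The member median was -0.57 without scaling, where all tested genes had -0.47, and the cause of the other shifts was not tested.

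The replicate numbers pair the samples in no way the labels state, and only sample 1 correlated best with its own number. With the replicate block the members called by the fold rule were Idi1 and Stard4, 0 lower and 2 higher.

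On the probes used, no member past either threshold as reported changed sign under the settings tried. Those that did were short of both thresholds on these probes. Srebf2 is among them, and its dimmer probe passed both. Leaving out the scaling lowers all genes by the same amount, so the turns listed first are not particular to these genes. Without scaling the log2 fold change was -0.29 for Hmgcs1, -0.16 for Mvk, -0.26 for Pmvk, -0.44 for Lss, -0.30 for Tm7sf2, -0.32 for Hsd17b7, -0.41 for Dhcr7 and -0.44 for Scap. With array weights it was -0.034 for Mvk, -0.031 for Scap, 0.16 for Fdft1, 0.040 for Srebf2, 0.35 for Acat2, 0.19 for Abca1 and 0.17 for Abcg5. Quantile normalization gave -0.042 for Tm7sf2 and -0.15 for Scap, and the z-scores -0.043 for Lss. With each array left out the values ranged from -0.19 to 0.11 for Fdps, -0.20 to 0.14 for Fdft1, -0.036 to 0.22 for Lss, -0.25 to 0.052 for Ebp, -0.10 to 0.041 for Srebf2, -0.10 to 0.25 for Scap, -0.25 to 0.29 for Acat2, -0.46 to 0.31 for Abca1 and -0.48 to 0.14 for Abcg5.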
